A study of Mus musculus with 9 samples.

Results

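The ELAV-like genes Elavl1, Elavl2, Elavl3 and Elavl4 encode RNA-binding proteins, and all 4 members are described here, out of 24100 genes in the count table. They were chosen by name, as the whole mouse family. The samples were poly(A) RNA of mouse cells that the labels call neural and that were differentiated in culture from embryonic stem cells. A transgene inserted with the PiggyBac transposon gave stable expression of histone H4 fused to HA, an epitope tag. In the H4K91Q group the lysine at position 91 of the tagged histone was glutamine, in the H4K91R group it was arginine, and in the H4WT group the tagged histone was wild type. Each group had 3 libraries, numbered 1 to 3, and all 9 carried an HA-tagged H4 transgene. The column headers of all 9 libraries also hold the text 4D, whose meaning is not assumed here. The labels do not mention removal of the cells' own H4 genes, how many clones a group came from, or whether the replicates were separate differentiations. The p-values therefore measure only the spread between these libraries, which may be technical.

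ELAV-like proteins bind U-rich and AU-rich stretches, mostly in introns and 3′ untranslated regions (3′UTRs), through RNA recognition motifs, and a hinge lies between the last of these motifs and the others. Elavl1, also called HuR, is made in nearly all cell types, sits mainly in the nucleus and moves to the cytoplasm, and is known for stabilising short-lived mRNAs. Elavl2 (HuB), Elavl3 (HuC) and Elavl4 (HuD) are made mainly in neurons, where they regulate splicing, stability and translation of neuronal mRNAs. Elavl2 is also made in germ cells, and HuC and HuD are widely used as markers of neurons. In bulk RNA, fewer cells of a type and less RNA per cell cannot be told apart.

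All 4 genes lie on the minus strand of the mouse genome (coordinates from the RefSeq annotation of GRCm38.p6, the patch release of mm10). Elavl1 (Entrez gene 15568) spans chr8:4284781-4325140 and Elavl3 (Entrez gene 15571) spans chr9:22015005-22052146. Elavl2 (Entrez gene 15569) and Elavl4 (Entrez gene 15572) share a chromosome, at chr4:91211533-91400108 and chr4:110203737-110351939. The main GENCODE M21 transcripts are 5743 bases long for Elavl1, 3840 for Elavl2, 5014 for Elavl3 and 4149 for Elavl4. Most of each is 3′UTR, at 4221 bases in Elavl1, 2480 in Elavl2, 3501 in Elavl3 and 2598 in Elavl4, against coding sequences of 978, 1119, 1101 and 1155 bases in the same order.

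Salmon, named in the submitters' processing notes, splits a read between genes it fits equally well, so the members' sequences were compared first. Identity between aligned coding bases ran from 68.9% for Elavl1 and Elavl3 to 76.8% for Elavl2 and Elavl4. In the alignment of all 4, made with MAFFT, 560 of 1167 columns held the same base in every member. The stretch of 60 bases most alike encodes part of the last RNA recognition motif, and it is shown because it is where the members could most easily share reads. It lies at bases 840 to 899 of the Elavl1 coding sequence, 978 to 1037 of Elavl2, 960 to 1019 of Elavl3 and 1014 to 1073 of Elavl4, and capitals mark the 46 bases that are the same in all 4 members.
Elavl1: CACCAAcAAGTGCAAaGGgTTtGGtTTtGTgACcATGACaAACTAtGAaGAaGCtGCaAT
Elavl2: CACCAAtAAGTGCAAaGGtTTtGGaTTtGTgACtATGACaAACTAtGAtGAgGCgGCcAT
Elavl3: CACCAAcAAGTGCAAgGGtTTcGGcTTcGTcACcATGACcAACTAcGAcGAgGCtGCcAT
Elavl4: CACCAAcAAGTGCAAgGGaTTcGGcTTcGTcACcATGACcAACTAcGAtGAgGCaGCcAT

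The least alike stretch of 60 bases that could be aligned lies ahead of the last RNA recognition motif, where the hinge is, and it shows how far the members have diverged there. It covers bases 659 to 718 of the Elavl1 coding sequence, 797 to 856 of Elavl2, 776 to 835 of Elavl3 and 833 to 892 of Elavl4, and only the 23 bases in capitals are shared by all.
Elavl1: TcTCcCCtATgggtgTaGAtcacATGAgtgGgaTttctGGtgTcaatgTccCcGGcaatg
Elavl2: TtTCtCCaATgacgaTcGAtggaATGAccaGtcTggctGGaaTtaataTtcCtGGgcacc
Elavl3: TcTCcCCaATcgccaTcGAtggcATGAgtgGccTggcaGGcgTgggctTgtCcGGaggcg
Elavl4: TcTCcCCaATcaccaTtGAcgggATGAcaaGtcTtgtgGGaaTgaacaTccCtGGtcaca

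The longest run shared by the main transcripts of any pair was 29 bases, between Elavl3 and Elavl4, and the shortest such maximum was 17 bases, for Elavl1 with Elavl3 and for Elavl2 with Elavl3. Over all annotated transcripts 0 of 10353 words of 31 bases in Elavl1, 0 of 8457 in Elavl2, 0 of 6898 in Elavl3 and 0 of 5447 in Elavl4 occurred in another member. In the GENCODE annotation other genes share exon bases with 2 of the members. Elavl1 shares 204 with Ccl25, which lies on the opposite strand and had between 45 and 142 counts per library. Elavl3 shares 256 exon bases with the same-strand gene model Gm49318, which has no row in the count table. No label gives the strand setting of the counting, so reads in those bases cannot be assigned with certainty.

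The members' own 3′UTRs were searched for the kind of sequence that ELAV-like proteins are known to bind. The heptamer TATTTAT, searched on the transcript strand with overlapping matches counted, occurs 8 times in the 3′UTR of Elavl1, 3 times each in Elavl2 and Elavl3 and 2 times in Elavl4. Of 4600 genes with a 3′UTR of at least 2000 bases, 56.9% hold it. Runs of TTTTTTT, counted in the same way, occur 17 times in Elavl1, 1 time in Elavl2, 2 times in Elavl3 and 10 times in Elavl4, and 76.3% of those genes hold 1 or more. The sites below, 25 bases each, are shown with the heptamer in capitals, and the Elavl1 site holds 4 overlapping copies.
Elavl1: gaaaatTATTTATTTATTTATTTAT
Elavl2: ttttgaagtttacattttTATTTAT
Elavl3: cttattgctgtgtttaacTATTTAT
Elavl4: tatgttgcttgaaacactTATTTAT

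The promoters of the member that changed most and the member that changed least are shown beside each other, each covering 250 bases before and 50 after a RefSeq start on GRCm38.p6. The Elavl3 window is chr9:22051974-22052273 and the Elavl1 window is chr8:4325051-4325350, both on the minus strand, with starts 13 and 313 bases from those of the main GENCODE transcripts of Elavl3 and Elavl1. For Elavl1 the main GENCODE start lies upstream of the window, so the window falls within the span of that transcript. Capitals mark matches to CAGCTG and CAGATG (E-box sequences bound by basic helix-loop-helix factors), CCAAT and TATAAA, searched on both strands. No matches overlapped.
Elavl3: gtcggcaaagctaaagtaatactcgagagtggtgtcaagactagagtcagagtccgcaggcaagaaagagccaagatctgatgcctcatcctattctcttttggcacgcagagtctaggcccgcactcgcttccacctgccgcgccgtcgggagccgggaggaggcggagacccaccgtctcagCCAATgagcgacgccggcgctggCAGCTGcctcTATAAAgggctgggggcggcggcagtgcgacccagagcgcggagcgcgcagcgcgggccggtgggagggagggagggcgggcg
Elavl1: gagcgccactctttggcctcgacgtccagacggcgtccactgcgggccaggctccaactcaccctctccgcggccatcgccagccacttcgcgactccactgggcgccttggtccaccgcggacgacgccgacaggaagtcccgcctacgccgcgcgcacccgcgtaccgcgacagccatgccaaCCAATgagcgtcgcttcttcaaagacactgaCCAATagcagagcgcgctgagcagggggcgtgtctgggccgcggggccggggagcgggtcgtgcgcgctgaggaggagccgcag

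The Elavl3 window holds CCAAT at -66, CAGCTG at -43 and TATAAA at -33, counted from the start. The Elavl1 window holds CCAAT at -65 and at -34 and none of the other 3 sequences. Both are rich in CG dinucleotides, with 29 in the Elavl3 window and 39 in the Elavl1 window, where the median of 32851 promoter windows is 7. Of those windows 16.3% hold CAGCTG, 17.2% CAGATG, 37.4% CCAAT and 13.6% TATAAA. Elavl2 has 6 windows and Elavl4 has 4, and those nearest the main transcript hold CAGCTG at 2 in Elavl2, and CAGATG at -101 and CCAAT at -26 in Elavl4. These are letter matches only, and no binding was measured.

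The libraries held 8970553 to 28887501 counts in all. A count of 3, the most that a count of 0 allows, equals 0.111 to 0.367 CPM (counts scaled to a common library size) depending on the library, and every member was far above that, with 70 to 3000 counts. Such limits cover counting error only, since the labels mention no molecular identifiers. CPM values below are scaled by edgeR's TMM factors, which ran from 0.911 to 1.06. Against H4WT, 46.0% of 14761 tested genes passed an adjusted p of 0.05 in H4K91R and 46.3% in H4K91Q, so a call against H4WT was common in these data, while 5.16% passed between H4K91Q and H4K91R. TMM gave 3314 genes higher and 3516 lower in H4K91Q than in H4WT, and 3092 higher and 3705 lower in H4K91R than in H4WT. Scaling by total counts alone gave 5557 higher and 2069 lower for H4K91Q and 5031 higher and 2013 lower for H4K91R, and moved the median log2 change of all genes by 0.17 for H4K91Q and by 0.18 for H4K91R.

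The 3 neuronal members Elavl2, Elavl3 and Elavl4 were all higher in both mutant groups than in H4WT, and higher in H4K91R than in H4K91Q in every library, while Elavl1 stayed within 0.16 of no change on the log2 scale. Elavl3 differed most, at 6.34 times the H4WT level in H4K91R and 4.10 times in H4K91Q in the fitted model. Of the 4 members, 3 were called higher in H4K91R than in H4WT, where 20.9% of all genes were called higher and 25.1% lower. The same 3 were called higher in H4K91Q, where 22.5% of genes were called higher and 23.8% lower. For these 3 every library of both mutants lay above every H4WT library, as did 25.0% of all genes in H4K91R and 27.4% in H4K91Q. The comparisons share the H4WT libraries, so they are not independent of each other. In a joint test over the 3 groups, in which 50.6% of genes passed, the adjusted p was 1.01e-07 for Elavl3, 6.41e-07 for Elavl2, 6.30e-06 for Elavl4 and 0.131 for Elavl1 (edgeR quasi-likelihood test, Benjamini-Hochberg adjustment).

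**Figure D1:**
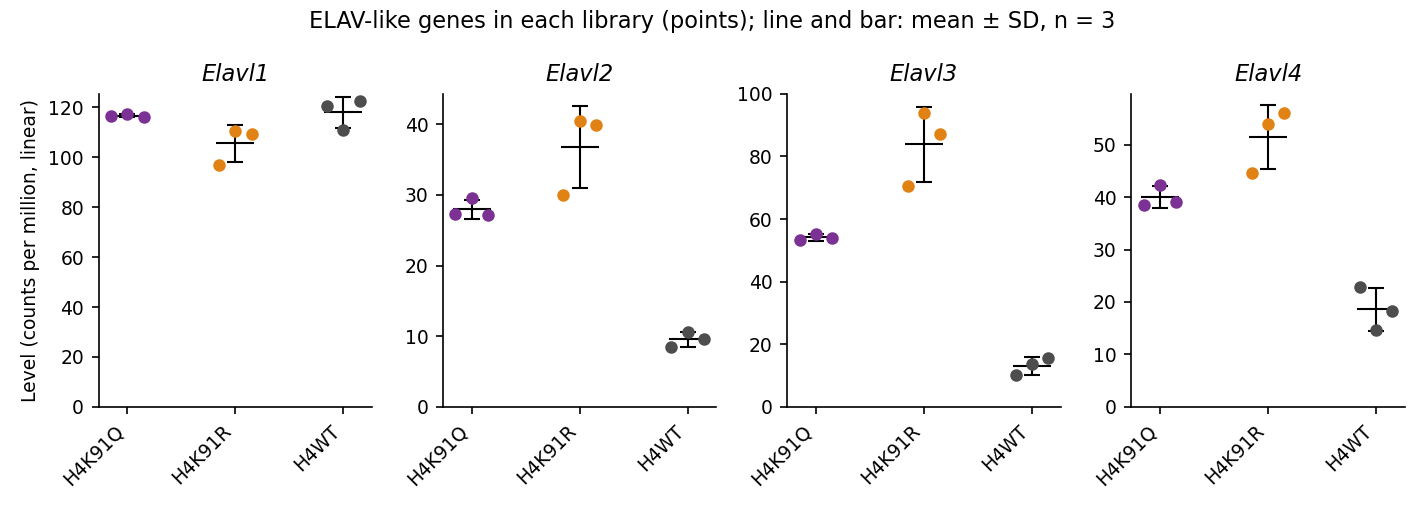
Level of each ELAV-like gene in CPM (TMM-scaled) in the 9 libraries, 1 panel per gene with its own axis from 0, H4K91Q and H4K91R to the left of H4WT. Points are libraries, horizontal lines are group means and whiskers are the SD (n = 3); Elavl2, Elavl3 and Elavl4 stand clear of H4WT in both mutant groups, and Elavl1 lies between 97.1 and 123 CPM in all libraries.

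Elavl3, the HuC gene, had 53.2, 55.3 and 54.0 CPM in H4K91Q replicates 1, 2 and 3. In H4K91R it had 70.6, 93.7 and 87.2 CPM. In H4WT it had 10.1, 13.6 and 15.7 CPM. The groups did not overlap in any pairing, the H4K91Q libraries lay within a few CPM of each other, and replicate 1 was the lowest library of each group. Group means were 54.1 ± 1.07 CPM in H4K91Q, 83.8 ± 12.0 CPM in H4K91R and 13.1 ± 2.81 CPM in H4WT (SD, n = 3 each). The log2 change was 2.66 ± 0.135 (SE) for H4K91R against H4WT (adjusted p = 4.73e-08, edgeR quasi-likelihood test) and 2.04 ± 0.134 for H4K91Q against H4WT (adjusted p = 3.42e-07). Of the 14761 genes, 72 had a larger log2 change in H4K91R against H4WT, or 0.488%, and 168 had a larger one in H4K91Q against H4WT, or 1.14%. Elavl3 was also the 1 member called between the mutants, at a log2 difference of -0.63 ± 0.116 for H4K91Q against H4K91R (95% interval -0.88 to -0.38, adjusted p = 0.0108), where 2.78% of genes were called lower and 2.37% higher. That call was lost without H4K91R replicate 2, at -0.54 and an adjusted p of 0.0597.

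Elavl2, the HuB gene, had 27.2, 29.5 and 27.2 CPM in H4K91Q, 30.0, 40.4 and 39.9 CPM in H4K91R, and 8.42, 10.6 and 9.67 CPM in H4WT. The mutant libraries all lay above the H4WT libraries, and H4K91R replicate 1 came close to the highest H4K91Q library without crossing it. Means were 28.0 ± 1.32 CPM in H4K91Q, 36.8 ± 5.84 CPM in H4K91R and 9.55 ± 1.08 CPM in H4WT (SD, n = 3 each). The fitted level was 2.87 times that of H4WT in H4K91Q (log2 1.52 ± 0.131, adjusted p = 1.95e-06, edgeR) and 3.75 times in H4K91R (log2 1.91 ± 0.132, adjusted p = 2.59e-07, edgeR). Between the mutants the difference was -0.39 ± 0.115 for H4K91Q against H4K91R (95% interval -0.64 to -0.14), which missed the threshold in edgeR with an adjusted p of 0.0721. It passed with DESeq2, at -0.42 and an adjusted p of 0.0331, and in edgeR without H4K91R replicate 1, at -0.52 and an adjusted p of 0.0186.

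Elavl4, the HuD gene, had 38.4, 42.3 and 39.1 CPM in H4K91Q, 44.5, 53.9 and 56.0 CPM in H4K91R, and 22.8, 14.6 and 18.4 CPM in H4WT. Here too all mutant libraries were above all H4WT libraries. H4WT replicate 1, which had the lowest Elavl2 and Elavl3 of its group, had the highest Elavl4. Means were 40.0 ± 2.09 CPM in H4K91Q, 51.5 ± 6.11 CPM in H4K91R and 18.6 ± 4.11 CPM in H4WT (SD, n = 3 each). The fitted level was 2.22 times that of H4WT in H4K91Q (log2 1.15 ± 0.139, adjusted p = 2.56e-05, edgeR) and 2.84 times in H4K91R (log2 1.51 ± 0.141, adjusted p = 2.39e-06, edgeR). The H4K91Q against H4K91R difference was -0.36 ± 0.127 (95% interval -0.64 to -0.08, adjusted p = 0.120, edgeR). Libraries of H4K91Q were below those of H4K91R with no overlap for all 3 neuronal members, an ordering that 12.8% of all genes showed.

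Elavl1, the HuR gene, was the most abundant member in counts, with 116, 117 and 116 CPM in H4K91Q, 97.1, 110.5 and 109 CPM in H4K91R, and 120.5, 111 and 123 CPM in H4WT. The H4K91R libraries were all below those of the other groups, by a narrow margin for replicates 2 and 3, and the H4K91Q libraries lay inside the H4WT range. Means were 117 ± 0.601 CPM in H4K91Q, 106 ± 7.45 CPM in H4K91R and 118 ± 6.15 CPM in H4WT (SD, n = 3 each). The log2 difference from H4WT was -0.01 ± 0.0703 in H4K91Q (95% interval -0.17 to 0.14, adjusted p = 0.881, edgeR) and -0.16 ± 0.0711 in H4K91R (95% interval -0.31 to -0.01, adjusted p = 0.0844, edgeR). Between the mutants it was 0.14 ± 0.0702 for H4K91Q against H4K91R (95% interval -0.01 to 0.30, adjusted p = 0.248, edgeR). Differences of this size depend on the scaling: by total counts alone the value against H4WT was 0.16 in H4K91Q and 0.03 in H4K91R, neither past the threshold. Of all genes, 30.1% had H4K91R libraries below H4WT libraries without overlap, 27.7% had H4K91Q libraries below them, and 12.5% had H4K91Q libraries above those of H4K91R.

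**Figure D2:**
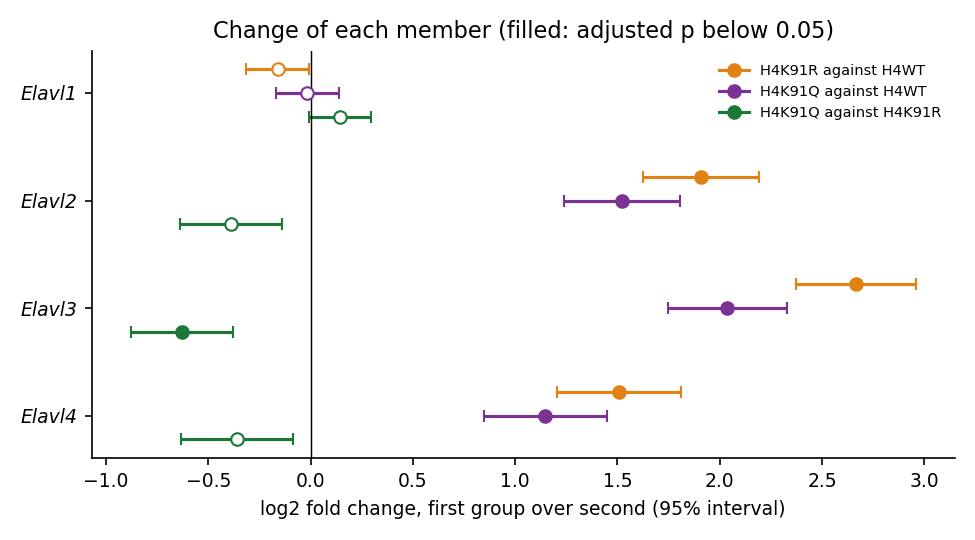
Fitted log2 change of each ELAV-like gene with its 95% interval for H4K91Q against H4WT, H4K91R against H4WT and H4K91Q against H4K91R (edgeR, 3 libraries per group). The 3 neuronal members lie at 1.15 to 2.66 against H4WT with intervals clear of 0, Elavl1 lies at -0.16 and -0.01, and only Elavl1 lies above 0 between the mutants.

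Levels of different genes can be compared only per length, so CPM were divided by the length of the main transcript in kilobases. Per kilobase, Elavl1 was the highest member in each group, at 20.3 ± 0.105 CPM per kb in H4K91Q, 18.4 ± 1.30 in H4K91R and 20.6 ± 1.07 in H4WT (SD, n = 3 each). Elavl3 followed in the mutants, at 10.8 ± 0.214 CPM per kb in H4K91Q and 16.7 ± 2.39 in H4K91R, against 2.61 ± 0.561 in H4WT. Elavl4 had 9.63 ± 0.504, 12.4 ± 1.47 and 4.49 ± 0.991 CPM per kb in H4K91Q, H4K91R and H4WT, and Elavl2 had 7.28 ± 0.344, 9.58 ± 1.52 and 2.49 ± 0.280. The order in H4K91Q was thus Elavl1, Elavl3, Elavl4, Elavl2, and no neighbours in it overlapped between libraries. H4K91R had the same order, but there Elavl1 and Elavl3 overlapped. In H4WT the order was Elavl1, Elavl4, Elavl3, Elavl2, and Elavl3 and Elavl2 overlapped. Divided by coding length instead, Elavl1 and Elavl3 no longer overlapped in H4K91R, and Elavl4 and Elavl3 did in H4WT.

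The family as a whole amounted to 48.0 ± 1.15 CPM per kb in H4K91Q, 57.1 ± 6.58 in H4K91R and 30.2 ± 1.62 in H4WT (SD, n = 3 each). The neuronal members made up 57.7% ± 0.80 of that sum in H4K91Q, 67.7% ± 1.56 in H4K91R and 31.8% ± 0.214 in H4WT. Divided by coding length instead, the neuronal share was 47.7% in H4K91Q, 58.6% in H4K91R and 23.2% in H4WT. Elavl1 was thus the larger part of the family in H4WT by either length, and in H4K91Q which part was larger depended on the length used. By member, Elavl3 held 22.5% in H4K91Q, 29.2% in H4K91R and 8.68% in H4WT. Elavl4 held 20.0%, 21.7% and 14.8% in those groups, and Elavl2 held 15.2%, 16.7% and 8.29%. The 3 H4WT libraries agreed on the combined neuronal share, at 31.6%, 31.7% and 32.0% in replicates 1, 2 and 3, although they split it differently among the 3 genes, with Elavl4 at 17.9%, 12.4% and 14.1%.

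**Figure D3:**
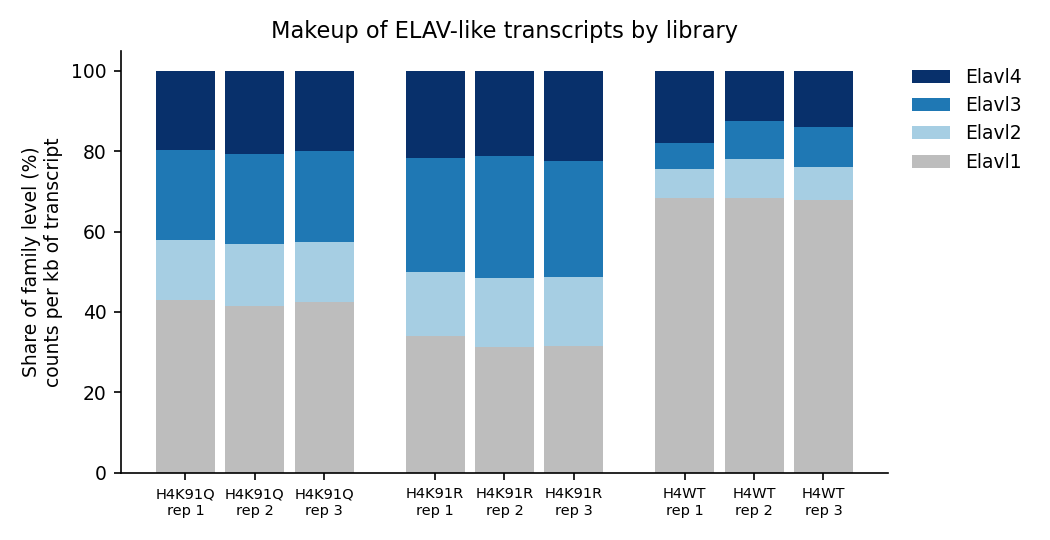
Share of each ELAV-like gene in the summed CPM per kb of the family, in percent, 1 stacked bar per library, with the H4K91Q and H4K91R libraries left of the H4WT libraries. The 3 neuronal genes together reach 57.7% on average in H4K91Q and 67.7% in H4K91R, against 31.8% in H4WT.

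Ratios between members within a library do not depend on how libraries are scaled. The log2 ratio of Elavl3 to Elavl1 counts averaged -1.11 ± 0.0228 in H4K91Q, -0.34 ± 0.112 in H4K91R and -3.19 ± 0.331 in H4WT (SD, n = 3 each), which is 2.08 higher in H4K91Q and 2.85 higher in H4K91R than in H4WT. For Elavl2 to Elavl1 the differences from H4WT were 1.57 in H4K91Q and 2.09 in H4K91R. For Elavl4 to Elavl1 they were 1.14 in H4K91Q and 1.64 in H4K91R. The neuronal members also moved unequally among themselves. Elavl3 to Elavl2 was 0.95 ± 0.0422 in H4K91Q, 1.19 ± 0.0547 in H4K91R and 0.44 ± 0.226 in H4WT, and Elavl3 to Elavl4 was 0.44 ± 0.0468 in H4K91Q, 0.70 ± 0.0863 in H4K91R and -0.50 ± 0.583 in H4WT. In H4WT, Elavl3 to Elavl4 was -1.17 in replicate 1 against -0.11 and -0.23 in replicates 2 and 3, and without replicate 1 its difference from H4WT was 0.61 in place of 0.94 in H4K91Q and 0.87 in H4K91R. Each of these 5 ratios gave p = 0.00357 in an exact permutation test over the 3 groups, the smallest value that 1680 assignments can give, and 0.00429 after Benjamini-Hochberg adjustment over the 6 ratios of the family. The ratio of Elavl2 to Elavl4 was -0.51 ± 0.0157 in H4K91Q, -0.49 ± 0.0769 in H4K91R and -0.94 ± 0.482 in H4WT, with an exact permutation p of 0.204. Among the H4WT libraries it ran from -1.43 in replicate 1 to -0.47 in replicate 2, and without replicate 2 the differences from H4WT were 0.66 in H4K91Q and 0.69 in H4K91R, with an adjusted exact permutation p of 0.0250. Without replicate 1 they were 0.18 in H4K91Q and 0.20 in H4K91R, with an adjusted exact permutation p of 0.361.

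**Figure D4:**
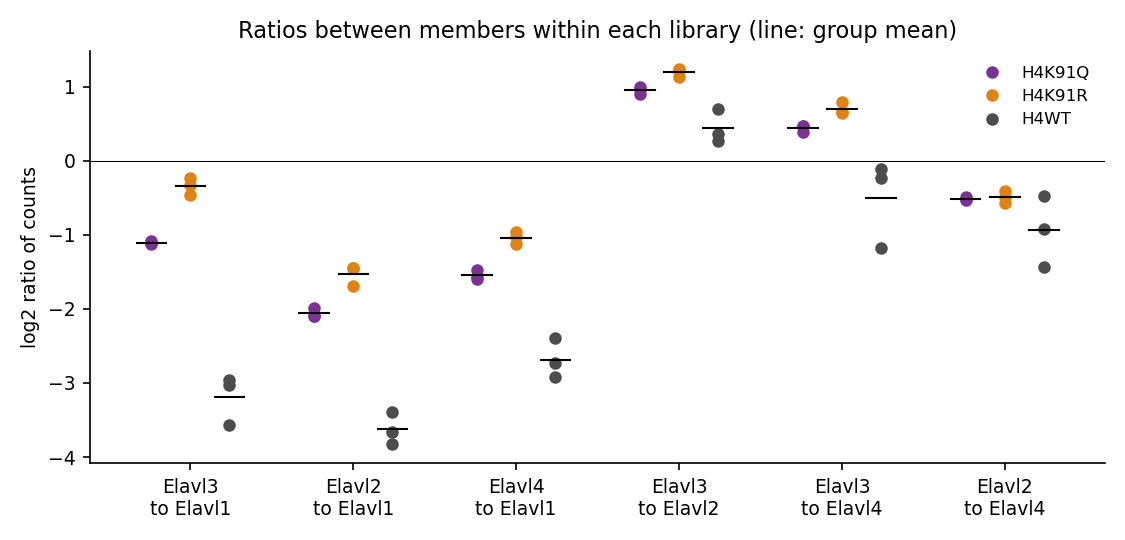
Log2 ratio of counts (0.5 added) for the 6 pairs of ELAV-like genes in each library, H4K91Q and H4K91R left of H4WT, with the group mean as a line. Elavl3 to Elavl1 averages -1.11 in H4K91Q and -0.34 in H4K91R against -3.19 in H4WT, and Elavl2 to Elavl4 is the pair in which mutant and H4WT libraries overlap.

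The neuronal members were set beside 22 other pan-neuronal markers, such as Map2, a microtubule-associated protein of dendrites, and Tubb3, a neuronal tubulin. Of these markers 17 were called higher and 1 lower in H4K91Q than in H4WT, with a median log2 change of 1.40, and 18 were higher and 0 lower in H4K91R, with a median of 1.89. The medians of all tested genes were 0.01 in H4K91Q and -0.03 in H4K91R. Among those genes 22.5% were called higher and 23.8% lower in H4K91Q, and 20.9% higher and 25.1% lower in H4K91R. Between the mutants 10 of the 22 were called lower in H4K91Q than in H4K91R and 0 higher, with a median of -0.48. In that comparison 2.78% of all tested genes were called lower and 2.37% higher. Map2 averaged 154 CPM in H4K91Q, 221 in H4K91R and 43.4 in H4WT. Not all markers did so: Ncam1, a neural adhesion molecule, had log2 differences from H4WT of -0.15 in H4K91Q and 0.07 in H4K91R (adjusted p = 0.284 and 0.646, edgeR).

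Relative to the mean log2 CPM of these markers in the same library, Elavl3 stood at 0.38 ± 0.0460 in H4K91Q, 0.58 ± 0.111 in H4K91R and -0.50 ± 0.172 in H4WT (SD, n = 3 each). On this scale every mutant library lay above every H4WT library for Elavl3 and also for Elavl2. The share of all genes with that order on this scale was not counted. The values were not divided by length, so only their differences between groups can be read. Elavl2 stood at -0.58 ± 0.0676, -0.61 ± 0.116 and -0.94 ± 0.0559 in H4K91Q, H4K91R and H4WT. Elavl4 stood at -0.06 ± 0.0600 in H4K91Q, -0.12 ± 0.0424 in H4K91R and 0.0012 ± 0.510 in H4WT, where the libraries ran from -0.46 to 0.55. Elavl1, which is not restricted to neurons, stood at 1.48 ± 0.0627, 0.92 ± 0.0471 and 2.69 ± 0.244 in the same groups.

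Markers of other cell types differed between the same groups. Beside the calls below, 22.5% of all tested genes were called higher and 23.8% lower in H4K91Q than in H4WT. In H4K91R the shares were 20.9% higher and 25.1% lower. The summed level of 10 smooth muscle genes was 546 to 614 CPM in H4K91Q, 569 to 863 in H4K91R and 4307 to 5166 in H4WT, and all 10 were called lower in both mutants, with medians of -3.28 in H4K91Q and -3.06 in H4K91R. Acta2, smooth muscle actin, averaged 245 CPM in H4K91Q, 315 in H4K91R and 2479 in H4WT. The 22 pan-neuronal markers summed to 1294 to 1423 CPM in H4K91Q, 1607 to 1952 in H4K91R and 674 to 789 in H4WT, and none was at 0. The summed level of 12 fibroblast and mesenchyme genes was 7810 to 8670 CPM in H4K91Q, 7387 to 8559 in H4K91R and 9202 to 10266 in H4WT. Sums over different lists of genes, not divided by length, do not rank the cell types. Of the 12 genes, 5 were called higher and 3 lower in H4K91Q, and 4 higher and 3 lower in H4K91R. With total-count scaling the counts were 8 and 3 in H4K91Q and 5 and 2 in H4K91R. For all 14761 genes that scaling gave 5557 higher and 2069 lower in H4K91Q, and 5031 higher and 2013 lower in H4K91R. Of 15 neural progenitor markers, 12 were higher and 2 lower in H4K91Q than in H4WT, and 13 were higher and 1 lower in H4K91R, although their summed level was 1666 to 1726 CPM in H4K91Q, 2001 to 2084 in H4K91R and 1929 to 2325 in H4WT. Pluripotent cell markers, 12 in number, summed to 338 to 493 CPM in H4K91Q, 195 to 222 in H4K91R and 307 to 395 in H4WT, and 8 were called higher and 1 lower in H4K91Q than in H4WT, while 0 were called higher and 10 lower in H4K91R. Elavl2 is also a germ cell gene, and 8 germ cell markers summed to at most 16.1 CPM in H4K91Q, 10.6 in H4K91R and 17.9 in H4WT, with Figla, an oocyte factor, at 0 in every library. Of the 4 germ cell markers tested, 1 was higher and 1 lower in H4K91Q, and 0 were higher and 1 lower in H4K91R. The part of cell makeup in the levels of the members was not tested.

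The genes whose pattern over the 9 libraries was most like that of each member were found by the root mean square difference in log2 CPM after centring each gene, among 13290 genes with at least 1 CPM on average. For Elavl3 the nearest were Dpysl4, a collapsin response mediator protein, at 0.0957, Nsg2, a neuronal vesicle protein, at 0.107, and Adgrg1, an adhesion receptor, at 0.124, where the median gene lay at 1.18. For Elavl2 they were Hoxb5, a homeobox factor, at 0.0497, Celf4, another neuronal RNA-binding protein, at 0.0529, and Vstm2b at 0.0741, with a median gene at 0.872. For Elavl4 they were Ntm, the adhesion molecule neurotrimin, at 0.124, Camk2b, a calcium/calmodulin-dependent kinase subunit, at 0.125, and Pcdhb5, a protocadherin, at 0.132, with a median gene at 0.687. Elavl1 was nearest to Tmem254a at 0.0414, Pus3, a pseudouridine synthase, at 0.0430 and Trip4, a transcription coactivator, at 0.0435, with a median gene at 0.213. Among the members, Elavl2 and Elavl4 differed by 0.311, Elavl2 and Elavl3 by 0.333 and Elavl3 and Elavl4 by 0.588. By nearness among the 13290 genes, Elavl4 ranked 434 from Elavl2, and Elavl2 ranked 398 from Elavl4. Elavl3 ranked 513 from Elavl2, and Elavl2 ranked 184 from Elavl3. Elavl4 ranked 655 from Elavl3, while Elavl3 ranked 3480 from Elavl4. All 9 libraries share the groups, so this is likeness of group pattern above all. Dpysl4, the closest to Elavl3, averaged 36.7 CPM in H4K91Q, 56.1 in H4K91R and 9.53 in H4WT, and Hoxb5, the closest to Elavl2, averaged 22.3, 30.3 and 7.52 CPM in the same groups.

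mRNAs known from other studies as targets of the neuronal ELAV-like proteins went in both directions. Of 22 such genes, 6 were higher and 5 lower in H4K91Q than in H4WT, with a median log2 change of 0.09, and 9 were higher and 5 lower in H4K91R, with a median of 0.11. With total-count scaling the counts became 9 higher and 4 lower in H4K91Q and 11 and 5 in H4K91R. Of all tested genes, TMM scaling gave 22.5% higher and 23.8% lower in H4K91Q, and 20.9% higher and 25.1% lower in H4K91R. Total-count scaling gave 5557 of 14761 genes higher and 2069 lower in H4K91Q, and 5031 higher and 2013 lower in H4K91R. Nova1, a neuronal splicing regulator, averaged 43.2 CPM in H4K91Q, 59.9 in H4K91R and 12.9 in H4WT, a log2 change of 1.75 in H4K91Q (adjusted p = 4.10e-07, edgeR) and 2.22 in H4K91R (adjusted p = 5.04e-08, edgeR). Mapt, which encodes tau, rose by 1.70 in H4K91Q and 2.22 in H4K91R, and Gap43, a growth cone protein and a classic HuD target that is also among the pan-neuronal markers, by 1.30 in H4K91Q and 1.63 in H4K91R. Bdnf, a neurotrophin, was lower, at 4.23 CPM in H4K91Q and 6.09 in H4K91R against 44.8 in H4WT (log2 -3.37 in H4K91Q and -2.80 in H4K91R, adjusted p = 7.54e-07 and 1.65e-06, edgeR). Cdkn1a, the cell cycle inhibitor p21 and a target of Elavl1 as well, was also lower, with a log2 change of -1.30 in H4K91Q and -1.06 in H4K91R. Between the mutants, Nova1 at -0.47 and Mapt at -0.52 were called lower in H4K91Q than in H4K91R, and Lin28a, an RNA-binding protein of stem cells, was called higher at 0.52 (adjusted p = 0.00199, edgeR).

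Most called targets of Elavl1 were lower in the mutants, while Elavl1 itself was not called. Of 20 tested, 4 were higher and 9 lower in H4K91Q than in H4WT, with a median log2 change of -0.18, and 2 were higher and 12 lower in H4K91R, with a median of -0.31. For all tested genes the shares were 22.5% higher and 23.8% lower in H4K91Q, and 20.9% higher and 25.1% lower in H4K91R. With scaling by total counts alone the target counts became 5 and 7 in H4K91Q and 3 and 7 in H4K91R. Their medians were then -0.01 and -0.12, where the medians of all genes were 0.18 and 0.15. That scaling called 5557 of 14761 genes higher and 2069 lower in H4K91Q, and 5031 higher and 2013 lower in H4K91R. Ptgs2, the inducible cyclooxygenase, had 7.53 CPM in H4K91Q and 6.97 in H4K91R against 69.9 in H4WT (log2 -3.19 in H4K91Q and -3.21 in H4K91R, adjusted p = 5.13e-06 and 5.43e-06, edgeR). Ccnd1, cyclin D1, fell by 0.84 in H4K91Q and by 0.86 in H4K91R, and Actb, beta-actin, by 0.37 in H4K91Q and by 0.45 in H4K91R. Pdcd4, a translation inhibitor, was higher, by 0.67 in H4K91Q (adjusted p = 1.68e-04, edgeR) and by 0.30 in H4K91R (adjusted p = 0.0298, edgeR). None of the 20 was called between the mutants by edgeR.

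Other proteins that bind AU-rich elements or act in mRNA decay were called in both directions. Of 22 genes, 5 were higher and 5 lower in H4K91Q than in H4WT, with a median of -0.02, and 4 were higher and 5 lower in H4K91R, with a median of -0.07. Among all tested genes 22.5% were higher and 23.8% lower in H4K91Q, and 20.9% higher and 25.1% lower in H4K91R, so this list lay near those shares. Total-count scaling gave 9 higher and 3 lower in H4K91Q and 7 and 3 in H4K91R. Over all 14761 genes it gave 5557 higher and 2069 lower in H4K91Q, and 5031 higher and 2013 lower in H4K91R. Zfp36, or tristetraprolin, which promotes decay of AU-rich mRNAs, was lower, at 42.8 ± 2.07 CPM in H4K91Q and 30.8 ± 1.31 in H4K91R against 62.9 ± 10.7 in H4WT (SD, n = 3 each). It was also the 1 gene of the list called between the mutants, at 0.47 for H4K91Q against H4K91R (adjusted p = 0.0249, edgeR). Its relatives Zfp36l1 and Zfp36l2 went the other way against H4WT, by 0.42 and 0.37 in H4K91Q and by 0.27 and 0.22 in H4K91R. Tia1, a stress granule protein, was higher by 0.50 in H4K91Q and 0.55 in H4K91R.

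Genes whose products bind Elavl1, move it between nucleus and cytoplasm or modify it were also mixed. Of 18, 4 were higher and 7 lower in H4K91Q than in H4WT, and 3 were higher and 7 lower in H4K91R, with medians of -0.07 and -0.15. The shares of all tested genes were 22.5% higher and 23.8% lower in H4K91Q, and 20.9% higher and 25.1% lower in H4K91R. With total-count scaling the counts of these 18 became 8 higher and 3 lower in H4K91Q and 6 and 5 in H4K91R. All 14761 genes moved the same way with that scaling, to 5557 higher and 2069 lower in H4K91Q, and 5031 higher and 2013 lower in H4K91R. Anp32a, a ligand that links Elavl1 to nuclear export, was higher by 0.73 in H4K91Q and 0.46 in H4K91R. Tnpo1, the import receptor transportin, fell by 0.66 in H4K91Q and by 0.60 in H4K91R, and Prkcd, a kinase that phosphorylates Elavl1, fell by 0.52 in H4K91Q and by 0.59 in H4K91R.

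The Celf genes encode the RNA-binding proteins most like the ELAV-like family in domain layout, and most of them were higher in both mutants. Of 6 Celf genes, 4 were higher and 0 lower in H4K91Q than in H4WT, with a median of 1.03, and 5 were higher and 0 lower in H4K91R, with a median of 1.32. The all-gene shares were 22.5% higher and 23.8% lower in H4K91Q, and 20.9% higher and 25.1% lower in H4K91R. Celf3 averaged 13.5 ± 1.64 CPM in H4K91Q, 24.1 ± 4.19 in H4K91R and 3.13 ± 0.975 in H4WT (SD, n = 3 each), a log2 change of 2.85 in H4K91R (adjusted p = 2.50e-07, edgeR) and a smaller one in H4K91Q (adjusted p = 5.07e-06, edgeR). Celf4 was higher by 1.55 in H4K91Q and 1.97 in H4K91R. Celf1, the widely made member, had differences of -0.02 in H4K91Q and -0.11 in H4K91R (adjusted p = 0.774 and 0.155, edgeR). Between the mutants 3 of the 6 were called lower in H4K91Q than in H4K91R, namely Celf3 at -0.84, Celf4 at -0.42 and Celf5 at -0.58. For all tested genes the shares between the mutants were 2.78% lower and 2.37% higher.

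**Figure D5:**
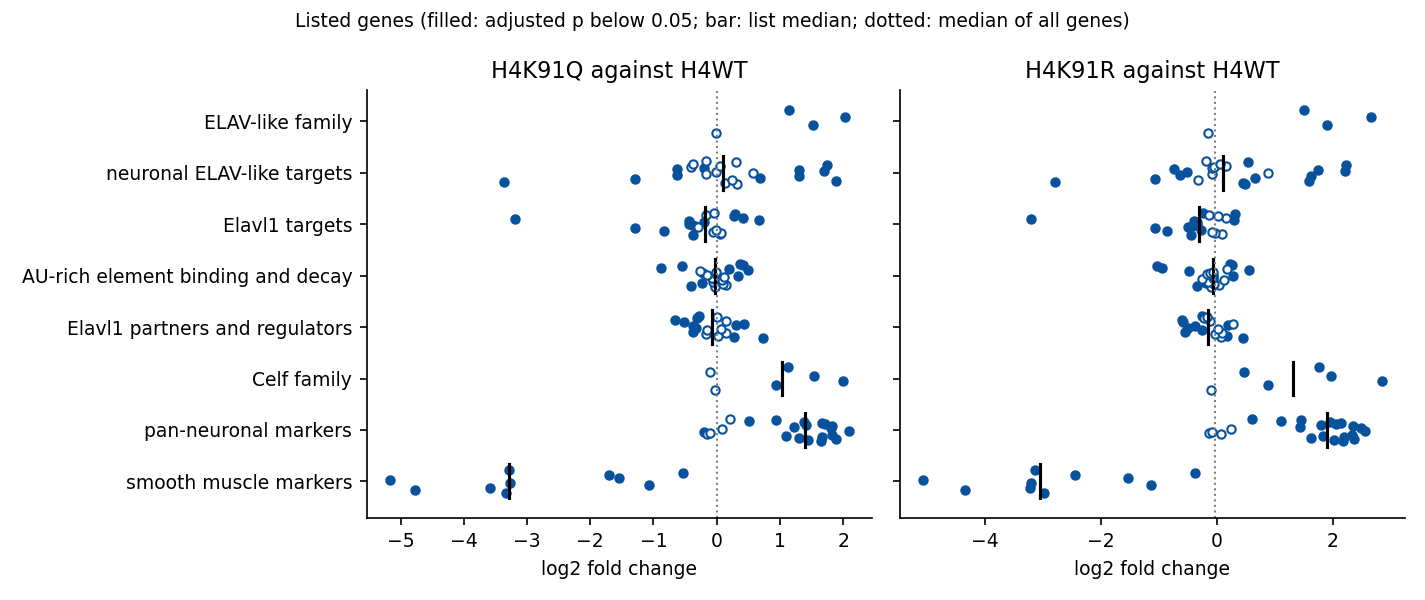
Log2 change of every tested gene in the ELAV-like family and in the lists of neuronal ELAV-like targets, Elavl1 targets, AU-rich element and decay genes, Elavl1 partners, Celf genes, pan-neuronal markers and smooth muscle markers, for H4K91Q against H4WT and H4K91R against H4WT. Each point is a gene (filled where called), each bar a list median and the dotted line the median of all genes; the Celf and pan-neuronal medians lie at 1.03 to 1.89, the smooth muscle medians at -3.28 and -3.06, and those of the 4 target, decay and partner lists between -0.31 and 0.11.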

How the data were processed

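Poly(A) RNA, isolated with QIAGEN RNeasy, went into NEBNext Ultra II libraries, per the labels' protocols. The authors deposited expected counts per gene, for which the submitters' processing notes name Salmon 0.8.2, the genome build mm10 and DESeq2. All values were whole, and whether the authors rounded them is not recorded. Neither the transcript annotation nor the strand setting is stated in those notes or the labels. Of 24100 Entrez IDs, 24045 matched a symbol in the RefSeq table of GRCm38.p6, and the other 55 stayed in the tests.

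Genes were filtered with filterByExpr (minimum count 10) in edgeR 4.0.16 (R 4.3.3), which kept 14761, and scaled by TMM. A single quasi-likelihood fit took all 9 libraries, with 1 coefficient per group (biological coefficient of variation 8.82%), with two-sided tests and Benjamini-Hochberg adjustment over all tested genes. The test was tried on simulated counts. Alternatives used DESeq2 1.42.0, limma 3.58.1, other scalings and filters, thinned counts, a replicate block and each library left out. Ratios used counts plus 0.5 and exact permutation tests in Python 3.11.15 with numpy 2.4.6. Sequences came from GENCODE M21 and RefSeq, aligned with MAFFT 7.526.

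Members, lists of targets, partners and markers, and tests were chosen with earlier results of these data known. Named genes were the members, the 3 genes most like each, and from each list up to 5 called genes per comparison by adjusted p or, for cell type markers, up to 3 of the highest level. Celf1 and Figla were added after their values were seen. In the lists not described above, 5 of 8 autonomic, 9 of 12 glial and 10 of 12 epithelial genes were tested. Against H4WT the autonomic genes gave 2 higher and 0 lower calls in each mutant, and the glial genes 5 and 1 in each. The epithelial genes gave 1 higher in each, 6 lower in H4K91Q and 5 lower in H4K91R. All tested genes gave 22.5% higher and 23.8% lower in H4K91Q, and 20.9% higher and 25.1% lower in H4K91R.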

Additional observations from a re-analysis of the deposited data

How the results depend on the processing

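Calls of Elavl2, Elavl3 and Elavl4 against H4WT kept their direction and their side of the threshold under all 18 alternatives for each, which covered scaling, filters, tools, thinning, the groups in the fit, a replicate block and each library left out. Log2 changes ran from 1.45 to 1.69 for Elavl2 in H4K91Q and 1.83 to 2.09 in H4K91R, from 1.91 to 2.20 for Elavl3 in H4K91Q and 2.55 to 2.85 in H4K91R, and from 0.95 to 1.32 for Elavl4 in H4K91Q and 1.32 to 1.69 in H4K91R.

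Elavl1 changed sign against H4WT with scaling by total counts alone, to 0.16 in H4K91Q and 0.027 in H4K91R, and with single libraries left out it ran from -0.062 to 0.0092 in H4K91Q, the highest without H4WT replicate 3, and -0.20 to -0.10 in H4K91R, never past the threshold. For H4K91Q against H4K91R, Elavl2 passed with DESeq2 (-0.42), with the replicate block (-0.38) and without H4K91R replicate 1 (-0.52), with single libraries left out giving -0.52 to -0.31. Elavl3 ran from -0.74 to -0.54 and missed the threshold without H4K91R replicate 2. The 761 genes called between the mutants became 188 to 1093 with 1 library left out, with 298 without H4K91Q replicate 1, 202 without H4K91Q replicate 2, 410 without H4K91R replicate 1 and 188 without H4K91R replicate 2. The Elavl2 to Elavl4 ratio differences ran from 0.18 to 0.66 in H4K91Q and 0.20 to 0.69 in H4K91R and passed without H4WT replicate 2. Counts not divided by length gave neuronal shares of 51.1% in H4K91Q, 61.8% in H4K91R and 25.9% in H4WT. Division by coding length, chosen after seeing the data, gave 47.7% in H4K91Q, 58.6% in H4K91R and 23.2% in H4WT.

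Deviations of same-numbered libraries had correlations of -0.134 to 0.182, over 0.1 in all 3 pairs only between H4K91Q and H4WT. There they were 0.121, 0.170 and 0.111, against -0.204 to 0.0501 for libraries with different numbers. With 3 libraries per group, these correlations cannot decide whether the numbers pair the samples. The replicate block gave 6840 calls for H4K91Q against H4WT, 6751 for H4K91R against H4WT, 1011 between the mutants and 7412 in the joint test, and it changed no call of a member except Elavl2 above. In block permutations 5 ratios had an adjusted p of 0.0333 and Elavl2 to Elavl4 had 0.194. The causes of these shifts were not tested.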
